A study of Homo sapiens with 7 samples.

Results

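Exon usage was examined in 7 human genes, ZFAND1, TMBIM6, LDLRAD3, MYO1E, MACROD1, DEF8 and DUXAP10, which were chosen because 1 exon bin of each changed strongly against the rest of the gene when RBM15 was knocked down. They are 7 of 62238 counted genes and 7 of 33 genes with a bin at an adjusted p under 0.05. An exon bin is a stretch of exon sequence between neighbouring exon boundaries of any annotated transcript model, so that 1 exon can be split into several bins. The genes were found by their symbols, and together they hold 322 bins, of which 235 had the summed count of at least 30 reads that the fit required. The bin in each gene with the largest change among those at an adjusted p under 0.05 is called its switched bin.

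The RNA came from MEG-01 cells, a human leukemia cell line of megakaryoblasts, harvested in exponential growth at passage 5. There was 1 library of control MEG-01 cells, which carry no knockdown label and are labelled as holding a lentiviral transgene, and 1 library from each of 2 lines with RBM15 knocked down by a lentiviral shRNA, shRBM15#1 or shRBM15#2. RIP-seq was done on the same cell line with an anti-RBM15 antibody and with normal IgG, 2 libraries by label for each. The control condition is a single culture and each shRNA is a single stable line, so the difference between conditions and the difference between these cultures cannot be told apart.

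RBM15 is a nuclear RNA-binding protein with RNA recognition motifs and a SPOC domain, and it is known as a partner of the N6-methyladenosine RNA methylation complex and as a regulator of splicing in blood cell precursors. A gene can yield different RNAs by starting at another first exon, by joining internal exons differently, or by ending at another last exon or poly(A) site. A first-exon change mostly alters the 5' untranslated region or the start of the protein, whereas an early end can remove the C-terminal part of the protein or shorten the 3' untranslated region.

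The shRNAs are shown because the 2 lines differ in which stretch of RBM15 they target. Each 20-base sequence matched RBM15 at 1 place on chromosome 1 of GRCh37, in the coding sequence on the plus strand.
shRBM15#1, chr1:110882526-110882545: gcggaatacaagactctgaa
shRBM15#2, chr1:110884588-110884607: ccaatggttatgccattctt
RBM15 itself was counted at 80.2 CPM (counts scaled to library size) in the control, 43.7 in the line with shRBM15#1 and 40.7 in that with shRBM15#2, a log2 fold change of -0.93 ± 0.23 (SE). Both knockdown libraries lay below the control, but the change was not past an adjusted p of 0.05 in edgeR's quasi-likelihood test.

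Reads on bins numbered 53230029 in the control, 41629454 under shRBM15#1 and 52458857 under shRBM15#2. The share of reads that fell in no bin was 21.6%, 30.4% and 21.9% in the same order, so the shRBM15#1 library stood apart in this respect. Of 12 megakaryocyte lineage markers in the count table, 8, 9 and 8 reached 1 CPM, and their summed levels were 1219, 1088 and 1318 CPM. For markers CPM were scaled to the reads on bins alone, without TMM factors. The sum of 5 erythroid markers was 124 CPM in the control, 286 under shRBM15#1 and 249 under shRBM15#2, and the sum of 5 monocyte and granulocyte markers was 123, 33.7 and 63.7 CPM. The sums of 4 T cell markers were 44.4, 14.5 and 20.5 CPM, those of 4 B cell markers 1.73, 4.20 and 2.17 CPM, and those of 5 fibroblast and epithelial markers 94.6, 75.3 and 68.1 CPM. No listed marker was at 0 in all 3 libraries, and the part of these differences in the exon usage described here was not tested.

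All 7 switched bins lay at a start or an end of transcript models. In ZFAND1, TMBIM6 and LDLRAD3 the switched bin was part of a first exon in every model that holds it, and in MYO1E, MACROD1, DEF8 and DUXAP10 it was part of a last exon in every such model. None was a cassette exon, which is an internal exon that is either kept or skipped. Of all 234192 tested bins, 14.6% lay only in first exons, 19.02% only in last exons and 32.8% only in internal exons. Of the 48 bins at an adjusted p under 0.05 in the fit (edgeR diffSpliceDGE), 16 lay only in first exons, 22 only in last exons and 4 only in internal exons. The 3392 bins past an unadjusted p of 0.05 and a fold of 1.2 were divided into 31.0% first, 30.5% last and 17.2% internal. Use rose in 1 of the switched bins, that of MACROD1, and was lower in the other 6. Because the genes were picked on these values, the shares and fold changes that follow are a description with no test.

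**Figure D1:**
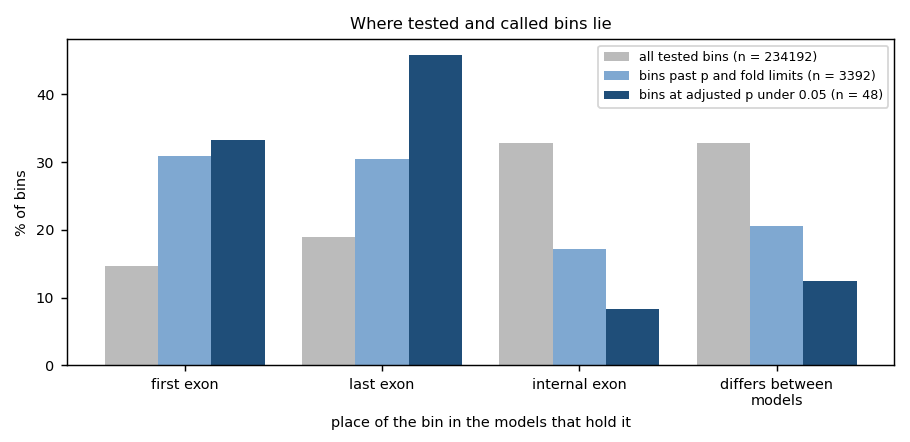
Percent of bins (vertical axis) that lie only in first exons, only in last exons, only in internal exons, or in places that differ between models (horizontal axis), for all tested bins and for bins called by 2 rules. Internal exons held 32.8% of all tested bins and 17.2% of the bins past the p and fold limits.

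The first-exon and last-exon sequences at the borders are shown to mark where these RNAs begin to be spliced and where they end, except for ZFAND1, whose sequence is not shown. The splice donors of the switched and of the common first exon were read from GRCh37 with the last 10 exon bases first, and the capitals mark the first 2 bases of the intron.
TMBIM6 switched first exon, chr12:50144479-50144498, plus strand: aagttctgagGTgagtagtg
TMBIM6 common first exon, chr12:50135385-50135404, plus strand: ggttaggaagGTacgtctga
LDLRAD3 switched first exon, chr11:36131635-36131654, plus strand: ttgtgtacagGTggggtttt
LDLRAD3 common first exon, chr11:35965685-35965704, plus strand: agcgccgcggGTgagtcggg
All 4 introns open with GT, the usual donor dinucleotide.

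The ends of the RNAs were searched for the poly(A) signal hexamers AATAAA and ATTAAA on the transcribed strand in the last 50 bases of each model. The capitals mark the hexamer.
MACROD1 short model, chr11:63916219-63916248, minus strand: ttattagtggAATAAAagtcgttggcaacg
DEF8 short model, chr16:90025745-90025774, plus strand: ctggatgagaaATTAAActagtgaattaca
DEF8 full-length model, chr16:90034439-90034468, plus strand: gtcactgtctcATTAAAtatacatccttta
MYO1E 3-exon model, chr15:59428565-59428594, minus strand: acctcctaaataAATAAAggaatcggcgaa
MYO1E full-length model, chr15:59427113-59427142, minus strand: tttttcctaATTAAAaagtcttcagaaaaa
DUXAP10 model with the switched exon, chr14:19872436-19872465, minus strand: ccgatgagaagatgcacgattgccattcag
The hexamer lay 12 to 15 bases before the end in the first 5 of these, and the DUXAP10 window held neither. Among the ends of 19881 canonical models of protein-coding genes, 63.4% held AATAAA, 17.99% held ATTAAA and 77.4% held at least 1 of them in the last 50 bases, so the presence of a hexamer is common and is no mark of these genes.

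ZFAND1 encodes an AN1-type zinc finger protein that takes part in the clearance of stress granules. In ZFAND1 (ENSG00000104231, minus strand) the switched bin 054 (chr8:82644434-82644580, 147 bp) is noncoding and belongs to the first exon of 5 of 25 models. It held 202 reads in the control, 8 under shRBM15#1 and 18 under shRBM15#2. These were 2.77% of the gene's reads (95% Wilson interval 2.42 to 3.17%), 0.276% (0.140 to 0.544%) and 0.570% (0.361 to 0.900%), respectively. Both knockdown libraries were therefore lower than the control by share, 10.0-fold and 4.86-fold, and their intervals overlapped each other but not that of the control. The relative log2 fold change, which is the change of the bin against the change of its whole gene, was -2.70 ± 0.28 (SE). These intervals, here and in what follows, cover counting error only.

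The neighbouring bins of ZFAND1 placed this change on the whole upstream first exon. Bins 055 and 056, which extend the exon upstream in some of the 5 models, fell from 49 to 2 and 5 reads and from 26 to 1 and 3 reads. The 5 bins 054 to 058 of the upstream first exon had a density of 13.6 RPKM in the control, that is, reads per kb scaled to the library's reads on bins, and of 0.742 and 1.36 RPKM with shRBM15#1 and shRBM15#2. The common first exon, whose outer end lies 11.3 kb downstream of the outer end of the upstream exon, had 15.9, 13.5 and 10.9 on the same scale. The exons downstream of it had 39.6, 19.9985 and 17.3. Density thus went down in all 3 stretches, most in the upstream first exon and least in the common first exon, where all 8 tested bins had relative log2 fold changes above 0, between 0.53 and 0.80. Bins 052 and 053 on the other side of the switched bin held no more than 5 reads in any library.

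The ratio of reads on bin 054 to reads on bin 045 of the common first exon was 2.49 in the control, 0.163 under shRBM15#1 and 0.367 under shRBM15#2. The ratio was therefore lower in both knockdown libraries. The bins differ in length, 147 and 15 bp, and a read counts in each bin it spans, so the ratio compares libraries and not the use of the 2 bins. At the gene level ZFAND1 had 147 CPM in the control, 64.8 and 60.5 CPM in the knockdown lines, and a log2 fold change of -1.23 ± 0.22 (SE). It was -1.2 with the switched bin left out of the gene sum. CHMP4C, which encodes an ESCRT-III subunit, starts 103 bp from the end of bin 054 on the opposite strand, and its exons overlap bins 058 and 059 but not 054. CHMP4C held 184, 30 and 60 reads, a log2 fold change of -2.02 ± 0.47 (SE) that was not past an adjusted p of 0.05 in edgeR's quasi-likelihood test. The RNA-seq libraries keep no strand, so reads of the 2 genes cannot be told apart where they overlap, and the part of CHMP4C in the values of ZFAND1 was not tested.

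TMBIM6 encodes Bax inhibitor 1, a membrane protein of the endoplasmic reticulum that restrains cell death and calcium release. In TMBIM6 (ENSG00000139644, plus strand) the switched bin 028 (chr12:50144403-50144488, 86 bp) is the noncoding first exon of 1 of 28 models, a protein-coding model of 8 exons. It held 86, 10 and 11 reads in the control, shRBM15#1 and shRBM15#2 libraries. They made up 0.128% (0.103 to 0.158%), 0.0214% (0.0116 to 0.0394%) and 0.0154% (0.00858 to 0.0275%) of the gene's reads. The exon was thus a small part of a strongly expressed gene in every library, and its share was 5.97-fold and 8.30-fold lower in the knockdown lines, with a relative log2 fold change of -2.81 ± 0.40 (SE).

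The bins beside it held few reads upstream and many downstream. Bin 027, an internal exon of 2 models, held 11, 1 and 9 reads, too few to be tested, and was low under shRBM15#1 only, and bin 026 held 13, 4 and 13 with a relative log2 fold change of -0.43 ± 0.57 (SE). Bins 029 and 030, which lie at the acceptor of the next exon, held 495, 405 and 619 reads and 1370, 1059 and 1655 reads, relative log2 fold changes of 0.24 and 0.17. Bin 013 of the common first exon, which begins 9.06 kb upstream, held 698, 591 and 918 reads. Of the reads on bins 013 and 028 together 11.0% lay on bin 028 in the control, 1.66% under shRBM15#1 and 1.18% under shRBM15#2. The bins are 34 and 86 bp long, so these shares compare libraries and not the use of the bins. The gene as a whole had 1362, 1044 and 1372 CPM, a log2 fold change of -0.17 ± 0.25 (SE), so that the control lay between the knockdown lines.

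A further pair of bins of TMBIM6 were past the p and fold limits, both used less. One was bin 056, a noncoding first exon of 1 model, with 64, 22 and 40 reads and a relative log2 fold change of -0.86 ± 0.36 (SE). The other was bin 064, which spans 1629 bp of the last exon in 6 models, with 11191, 4966 and 7146 reads and -0.69 ± 0.23 (SE). The 7 bins of the last exon together took 23.9% of all TMBIM6 reads in the control, 17.2% under shRBM15#1 and 16.6% under shRBM15#2.

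LDLRAD3 encodes a membrane protein with repeats of the low density lipoprotein receptor class A type. In LDLRAD3 (ENSG00000179241, plus strand) the switched bin 009 (chr11:36131475-36131644, 170 bp) is the first exon of 1 of 6 models, a model of 3 exons with no defined coding sequence, and it lies in an intron of the full-length models. It held 48 reads in the control and 2 in each knockdown library. The shares were 3.19% (2.42 to 4.21%), 0.199% (0.0545 to 0.721%) and 0.184% (0.0505 to 0.669%). This relative log2 fold change, -3.997 ± 0.58 (SE), was the largest of the 7, and it rests on the fewest knockdown reads.

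The other 11 tested bins of LDLRAD3 had relative log2 fold changes between -0.20 and 0.27, a range smaller than the SE of the switched bin. The common first exon begins 166 kb upstream, and its bin 003 held 28, 22 and 19 reads. The control had 1.71 reads on bin 009 for each read on bin 003 and the knockdown libraries had 0.0909 and 0.105. The bins are 170 and 46 bp long, so these ratios too compare libraries only. The exons that the short model lacks had a density of 7.65, 6.95 and 6.30 RPKM, and the exons downstream of the switched bin had 5.93, 5.17 and 4.46. Density was lower than the control in both knockdown lines in each of these stretches, whether or not the short model contains it. Bin 008, which lies just upstream in 1 model, held 2, 1 and 0 reads, and bin 010, a first exon of another model, held 7, 8 and 1. Bin 011 further downstream held 184, 109 and 126 reads. At the gene level LDLRAD3 had 30.4, 22.5 and 20.8 CPM, a log2 fold change of -0.49 ± 0.26 (SE).

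The starts of these 3 genes were compared by base composition in the 300 bases from 250 before to 50 after the outer end of each first exon. The window of the LDLRAD3 switched exon was 39.3% G and C and held 4 CpG dinucleotides, and that of the TMBIM6 switched exon was 44% G and C and held 1. The windows of their common first exons were 76.7% and 58.3% G and C and held 37 and 22 CpG. The upstream ZFAND1 exon had 62% and 16 CpG against 65% and 26 CpG for the common one. Its window was taken at the outer end of bin 058, which only 1 of the 5 models reaches and which held 9, 1 and 2 reads. The window does not reach bin 054, and the starts of the other models were not measured. Over 19881 canonical starts of protein-coding genes the medians were 63.7% and 23 CpG, so the switched starts of TMBIM6 and LDLRAD3 were poor in CpG. The window at the outermost ZFAND1 start was nearer to the median. Of the sequences TATAAA, TGATGCAA and AGATAA, searched on both strands, TATAAA was found at the LDLRAD3 switched exon only and the other two at none of the 6 starts. These sequences were present in 9.62%, 0.644% and 7.15% of all the canonical starts, respectively.

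**Figure D2:**
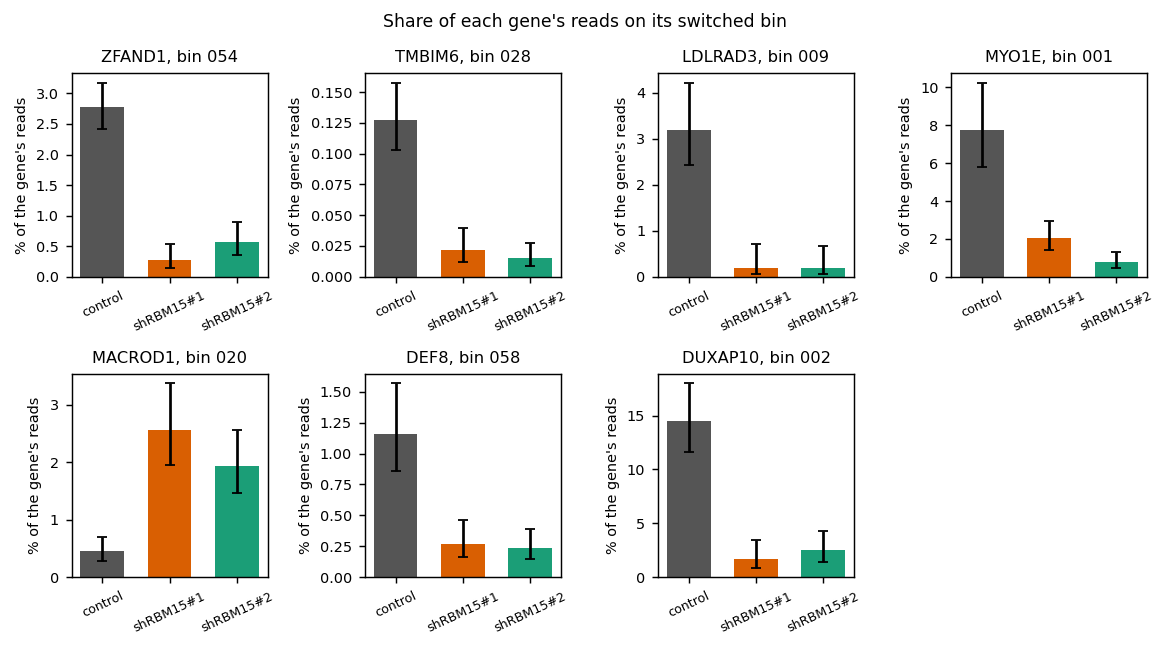
Share of each gene's reads on its switched bin in percent (vertical axes, each with its own scale from 0) in the control and the 2 knockdown libraries. Error bars are 95% Wilson intervals, and both knockdown bars lie below the control bar in 6 genes and above it in MACROD1, where 0.449% rose to 2.56% and 1.93%.

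MYO1E encodes a class I myosin, a single-headed motor that links membranes to actin. In MYO1E (ENSG00000157483, minus strand) the switched bin 001 (chr15:59427113-59428564, 1452 bp) is the distal part of the 3' untranslated region in the last of 28 exons. It held 44, 26 and 14 reads in the control, shRBM15#1 and shRBM15#2 libraries, which were 7.75% (5.82 to 10.2%), 2.03% (1.39 to 2.96%) and 0.786% (0.469 to 1.32%) of the gene's reads. The intervals of the 3 libraries did not overlap, and the 2 knockdown lines differed from each other as well, with relative log2 fold changes of -1.93 and -3.30 when each was set alone against the control. With both lines the value was -2.53 ± 0.36 (SE).

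The rest of MYO1E went the other way. Bin 003, which holds the end of the coding sequence in the same last exon, had 41, 93 and 95 reads, and bin 002, which lies between them and is also the last exon of a model of 3 exons, had 27, 44 and 58. The density of the body of the gene was 2.10 RPKM in the control, 6.57 under shRBM15#1 and 7.54 under shRBM15#2. The proximal part of the last exon went from 1.17 to 3.02 and 2.67, and the distal part from 0.569 to 0.430 and 0.184. Density before the border at which the 3-exon model ends, with AATAAA 12 bases before it, was therefore higher in both knockdown lines. Beyond the border it was lower, at 0.756 of the control under shRBM15#1 and 0.323 under shRBM15#2. With 26 reads against 44, the drop under shRBM15#1 is small for such counts, and its lower share goes mostly with the rise of the rest of the gene. The gene had 11.5, 28.6 and 34.1 CPM, a log2 fold change of 1.45 ± 0.29 (SE), which was 1.55 with the switched bin left out.

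MACROD1 encodes a macrodomain hydrolase that removes ADP-ribose from proteins and is found in mitochondria. In MACROD1 (ENSG00000133315, minus strand) the switched bin 020 (chr11:63916219-63916506, 288 bp) is the last of 4 exons in 1 of 8 models, which has no defined coding sequence and ends 150 kb before the full-length models do. It held 19 reads in the control, 49 under shRBM15#1 and 48 under shRBM15#2. The shares were 0.449% (0.287 to 0.700%), 2.56% (1.94 to 3.37%) and 1.93% (1.46 to 2.55%), 5.71-fold and 4.31-fold higher in the knockdown lines. The relative log2 fold change was 2.31 ± 0.30 (SE), and MACROD1 was the only one of the 7 genes whose switched bin was used more.

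In MACROD1 the switched bin rose in reads while its gene was lower. Bins 021 and 022, the exons just upstream, held 518, 278 and 356 reads and 423, 200 and 278 reads. Bin 018, the next exon of full-length models, held 248, 121 and 143, and bin 019, a first exon of another model, held 0, 2 and 0. The density upstream of bin 020 was 42.9, 24.98 and 27.2 RPKM, and downstream of it 44.55, 24.8 and 24.97, whereas on bin 020 it was 1.24, 4.09 and 3.18. Density on bin 020 was thus low beside the rest of the gene in all 3 libraries. Bin 020 lies in an intron of the full-length models, and no reads over its splice site or its end were examined. How many of its reads come from RNAs that end there was therefore not tested. The other 23 tested bins had relative log2 fold changes between -0.40 and 0.24. The acceptor of the switched last exon and that of the next full-length exon are shown because they mark the alternative ways of leaving exon 3, with the last 20 intron bases first and the final AG of the intron in capitals.
MACROD1 switched last exon, chr11:63916504-63916526, minus strand: ctgggatctttttgttctAGact
MACROD1 next full-length exon, chr11:63782751-63782773, minus strand: tttgtctctctctcttgcAGcca
At the gene level MACROD1 had 85.6, 42.7 and 47.6 CPM, a log2 fold change of -0.92 ± 0.23 (SE).

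**Figure D3:**
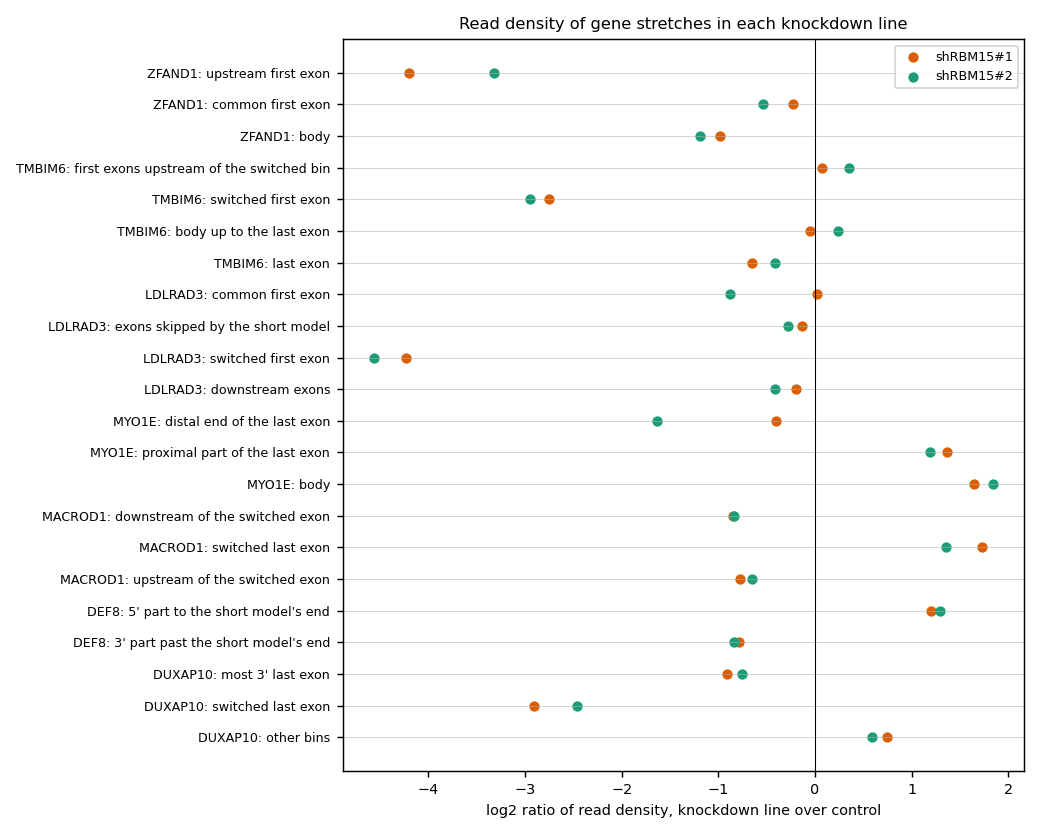
Log2 ratio of read density, in RPKM over reads on bins, of each knockdown line over the control (horizontal axis) for stretches of the 7 genes (vertical axis), 1 point per line. The farther upstream first exon of ZFAND1, with 6, 2 and 0 reads, is left out. In MYO1E and DEF8 the distal and the proximal stretches lie on opposite sides of 0.

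DEF8 encodes a protein with a cysteine-rich domain of the Rubicon homology type that takes part in lysosome positioning. In DEF8 (ENSG00000140995, plus strand) the switched bin 058 (chr16:90032269-90032314, 46 bp) opens the last exon in 10 of 27 models and is coding in 7 of them. It held 41, 13 and 15 reads, or 1.16% (0.856 to 1.57%), 0.271% (0.158 to 0.463%) and 0.235% (0.142 to 0.387%) of the gene's reads, a relative log2 fold change of -2.21 ± 0.26 (SE). It was not alone. All 20 tested bins past the end of a short model, bins 042 to 065, had relative log2 fold changes between -2.21 and -1.15, and 5 of them were at an adjusted p under 0.05.

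The short model of DEF8 ends at position 90025774, has 6 exons and a coding length of 591 bp, against 1353 bp for the canonical model, whose end lies 8.69 kb downstream. Bin 040, its last exon past the splice site that full-length models use, held 138 reads in the control, 282 under shRBM15#1 and 403 under shRBM15#2. Bins 045 and 046, internal exons of full-length models, held 62, 25 and 28 reads and 57, 19 and 25 reads. Bins 056 and 057 before the switched bin and 059 and 060 after it were lower as well where they could be tested, with 47, 17 and 29 reads on bin 057, 39, 20 and 28 on bin 059, and 19, 8 and 18 on bin 060. The density of the stretch up to the short end was 14.4 RPKM in the control, 33.1 under shRBM15#1 and 35.3 under shRBM15#2. Past that end it was 6.30, 3.64 and 3.53.

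Both knockdown libraries thus had more reads than the control before the short end of DEF8 and fewer after it. The stretch past the short end took 32.9% of the summed bin counts of DEF8 in the control, 10.9% under shRBM15#1 and 10.0% under shRBM15#2. Reads that span several bins were counted in each, which weights stretches of short bins, so no interval is given for these sums. The gene sum of DEF8 was 71.4, 107 and 122 CPM, a log2 fold change of 0.68 ± 0.24 (SE), and its sign is that of the 5' stretch and not of the 3' stretch.

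**Figure D4:**
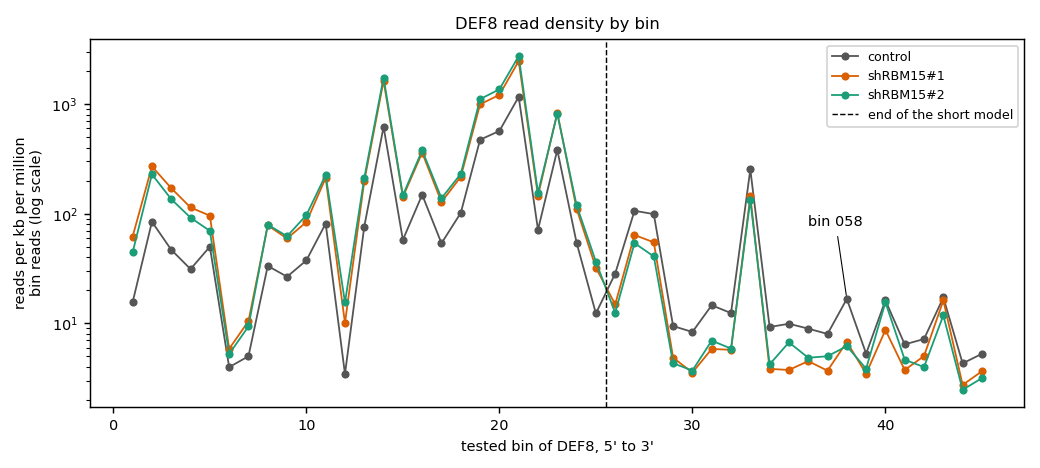
Read density of the 45 tested bins of DEF8 in transcript order (horizontal axis) in RPKM over reads on bins (vertical axis, log scale), 1 line per library. Both knockdown lines lie above the control up to the end of the short model (dashed) and below it from there on.

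DUXAP10 is a transcribed pseudogene of the homeobox gene DUXA, and its RNA is not known to be translated. In DUXAP10 (ENSG00000244306, minus strand) the switched bin 002 (chr14:19872436-19872514, 79 bp) is the last of 6 exons in 1 of 15 models. It held 67, 7 and 12 reads in the control, shRBM15#1 and shRBM15#2 libraries, or 14.5% (11.6 to 18.01%), 1.69% (0.823 to 3.46%) and 2.46% (1.42 to 4.26%) of the gene's reads. The relative log2 fold change was -2.59 ± 0.34 (SE), and the intervals of the knockdown libraries overlapped each other but not that of the control.

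DUXAP10 has several alternative last exons, and they did not move together. Bin 001, the most distant of them, held 123, 51 and 72 reads, a relative log2 fold change of -0.78 ± 0.24 (SE), and it overlaps exons of NBEAP6 and TOMM40P1. Bin 005, the last exon of another model, held 116, 134 and 176 reads and had 0.64 ± 0.22 (SE). Bins 003 and 004 held 3, 1 and 10 reads and 20, 19 and 22 reads. Of the reads on bins 002 and 005 together, 36.6% lay on bin 002 in the control, 4.96% under shRBM15#1 and 6.38% under shRBM15#2. The bins are 79 and 1581 bp long, so these shares compare libraries and not the use of the bins. The gene had 9.34, 9.23 and 9.33 CPM, a log2 fold change of -0.01 ± 0.31 (SE), so its sum did not show the changes on these bins. DUXAP10 has near-identical copies, among them DUXAP9, so reads may have been placed on the wrong copy and these counts are uncertain. DUXAP9 also had a last-exon bin, 037, that was used less, with 110, 20 and 36 reads and a relative log2 fold change of -1.88 ± 0.30 (SE).

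Over the 7 genes, 35 of 235 tested bins were past an unadjusted p of 0.05 and a fold of 1.2, against 1.45% of all tested bins, and 22 of the 35 were in DEF8. Of the 35, 30 were used less, against 0.787% of all tested bins, and 5 were used more, against 0.662%. At an adjusted p under 0.05 there were 11, against 0.0205% of all tested bins. These counts follow from the choice of the genes. LDLRAD3, MYO1E and MACROD1 had 1 bin each past the limits, DUXAP10 and TMBIM6 had 3, and ZFAND1 had 4. When the bins at an adjusted p under 0.05 were ordered by absolute relative log2 fold change, with 1 bin per gene, the 7 genes took places 1, 3, 4, 5, 6, 8 and 9. SLC16A1, a lactate transporter gene, was at place 2 with -3.36, and HSP90AA1, a heat shock protein gene, at place 7 with -2.32. The last of the 7 genes in this order was DEF8 with -2.21, and the next gene outside was MAX with -2.13, followed by HSPA8 with -2.04.

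**Figure D5:**
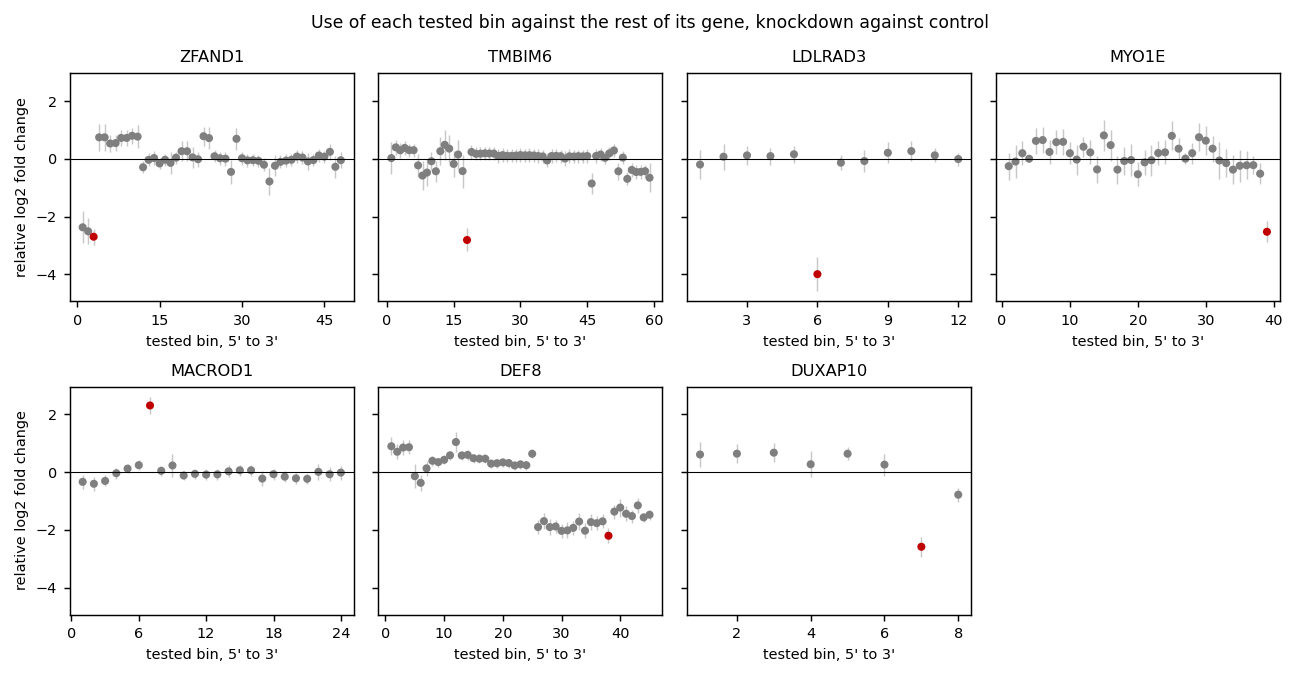
Relative log2 fold change of every tested bin of the 7 genes (vertical axis, ± SE) in transcript order from 5' to 3' (horizontal axis), with the switched bin in red. The switched bin is the only bin past the p and fold limits in LDLRAD3, MYO1E and MACROD1, and is 1 of a run of lower bins in ZFAND1 and DEF8.

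Change of a bin and change of the gene sum were not of 1 direction. ZFAND1, LDLRAD3 and MACROD1 were lower by gene sum in both knockdown lines, MYO1E and DEF8 were higher in both, and TMBIM6 and DUXAP10 were near the control. ZFAND1 and MYO1E were past an adjusted p of 0.05 by gene sum, against 1.74% of all 24887 genes tested, and none was past 0.01, against 0.346%. With other settings ZFAND1 was past 0.01 (a minimum count of 1, DESeq2), as was MYO1E (DESeq2), and MACROD1 was past 0.05 (a minimum count of 1). These calls come from the contrast by which the genes were chosen and are given as a description.

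Relatives of the 7 genes were described by the same fits. Of 36 listed relatives, 35 were in the count table and 28 had tested bins. A bin past the p and fold limits was present in 5 of these 28, against 15.2% of all 12893 genes tested for exon usage, and in 1, DUXAP9, a bin was at an adjusted p under 0.05, against 0.256% of all. The 5 were MYO1G with 2 such bins, LDLRAD4, RUBCN and PLEKHM1 with 1 each, and DUXAP9 with 2. None of the 6 ZFAND relatives, the 4 TMBIM relatives with tested bins or the 8 macrodomain relatives had one. By gene sum 1 of 34 relatives tested was past an adjusted p of 0.05, against 1.74% of all genes, and none was past 0.01, against 0.346%, so the count of relatives was near the background. The 1 was MYO1G, a class I myosin of blood cells, with 340, 77.1 and 123 CPM and a log2 fold change of -1.76 ± 0.28 (SE, edgeR quasi-likelihood test, adjusted p = 0.0223), opposite in sign to MYO1E.

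RIP-seq sites were taken from a list of 1515 sites that passed the authors' filter. The counts in this list differed more by replicate number than by antibody label. At all 1515 sites the second library of each label held more reads than the first of the same label. The second library labelled normal IgG also held more than the first labelled anti-RBM15 at all 1515. The sums over sites were 28387 and 610915 reads in the libraries labelled IgG and 28845 and 807871 in those labelled anti-RBM15. The counts are raw, so a difference in depth and a conflict of labels cannot be told apart. No comparison between antibodies was therefore made, and counts are given by label in that order. MYO1E had 1 site and MACROD1 had 2 by gene symbol, and the other 5 genes had none in this list. For comparison, 887 of 12893 genes tested for exon usage had a site, or 6.88%, and of the 1965 genes with a bin past the p and fold limits, as the 7 genes are, 236 had one, or 12.01%.

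The MYO1E site (chr15:59431574-59432051, 478 bp, minus strand) lies in the intron between bins 005 and 006, 3.01 kb upstream of the switched bin in the direction of transcription. It held 9, 280, 7 and 271 reads. The first MACROD1 site (chr11:63777670-63778532, 863 bp, minus strand) held 32, 1369, 31 and 2073 reads, and the second (chr11:63866920-63867333, 414 bp, minus strand) held 13, 344, 18 and 403. Both lie in introns downstream of the switched exon, 138 and 48.9 kb from it and so beyond the end of the short model. Another 3 sites assigned to FLRT1 on the plus strand lie inside the MACROD1 span, 34.01 to 34.9 kb from the switched bin. None of these 6 sites overlaps an exon bin of the 7 genes, and whether a site bears on the switched bin of its gene was not tested.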

How the data were processed

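For the RNA-seq the authors mapped paired reads without strand information to GRCh37 by STAR. The values they deposited are unnormalized counts for each exon bin of Ensembl 70 models. Their deposited site list holds raw RIP-seq read counts of 4 libraries, with positions. The counting program's settings are not given in the sources used here. Versions in the submitters' processing notes include HTSeq 0.6.0, bedtools 2.17.0 and Picard 1.126. The deposited columns of fold changes, p-values and FDR hold the authors' own comparisons and were not used. Of each RNA-seq library, 23.2%, 32.0% and 23.5% of reads were on lines that name no gene and were left out.

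Exon usage was fitted over the 234192 bins, in 12893 genes, whose counts summed to 30 or more, with edgeR 4.0.16 in R 4.3.3 (diffSpliceDGE, TMM), and gene expression over 24887 genes with the quasi-likelihood test; p-values were adjusted by Benjamini-Hochberg over the whole table. DESeq2 1.42.0 served as an alternative. Both steps were run on simulated counts with a fixed spread and with changes set only in bins or genes of at least 300 summed reads. The switched bins had a median of 86 summed reads, so that run does not cover them. With 1 control library, the spread came from the 2 knockdown lines. Symbols, coding parts and exons of other genes came from GENCODE 44 lifted to GRCh37, and transcript models were rebuilt from the bins. A switched bin is the bin with the largest absolute relative change at an adjusted p under 0.05; 2 neighbours on each side, bins past a log2 change of 1, and called relatives are named with it. The 7 genes, the lists of relatives and markers, and the stretches and comparison bins were chosen with earlier results of these data known. Shares of single bins carry 95% Wilson intervals. A read that spans bins counts in each, so a gene's reads are its summed bin counts.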

Additional observations from a re-analysis of the deposited data

How the results depend on the processing

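The relative change of each switched bin kept its direction under all alternatives run. A minimum summed count of 1 in place of 30 raised the number of tested bins to 494487. With it the switched bins of LDLRAD3 (-3.99) and DEF8 (-2.20) no longer met the limit of an adjusted p under 0.05 by which switched bins were chosen. This describes the choice of the bins and is no test of them. With 1 knockdown line left out, which leaves a value with no test, the relative log2 fold changes ranged from -3.31 to -2.27 for ZFAND1, -3.04 to -2.56 for TMBIM6, -4.05 to -3.93 for LDLRAD3, -3.30 to -1.93 for MYO1E, 2.10 to 2.51 for MACROD1, -2.30 to -2.10 for DEF8 and -2.86 to -2.38 for DUXAP10. The number of bins past the p and fold limits was 8733 with a minimum of 1 and 736 with a minimum of 300, against 3392, and at an adjusted p under 0.05 it was 23 with a minimum of 1 and 194 with a DEXSeq-type model in DESeq2, against 48. The number of genes at an adjusted p under 0.01 was 191 with size factors, 801 with a minimum of 1 and 525 with DESeq2, against 86; the cause was not tested. Within a window of 2 bins on each side, the log2 ratio of the share was -0.49 for ZFAND1 and -0.54 for DEF8, whose neighbours are lower too, -1.69 for MYO1E (against -2.46), -1.70 for DUXAP10 (against -2.80) and -3.81 for LDLRAD3 (against -4.06). By gene sum ZFAND1 was past an adjusted p of 0.01 with a minimum of 1 and with DESeq2, MYO1E with DESeq2, and MACROD1 was past 0.05 with a minimum of 1. The gene change of TMBIM6 was 0.01 without the shRBM15#1 line, and that of DUXAP10 was 0.19 without its switched bin. No paired analysis was possible because there is a single control library. Between 2 and 86 reads on most switched bins limit the precision.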
